A study of Mus musculus with 4 samples.

Results

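The nuclear genes of oxidative phosphorylation were described in LPS-matured dendritic cells derived from bone marrow (maDC). Members were the protein-coding genes listed in both deposited tables whose symbol starts with Nduf, Uqcr, Atp5 or Cox4 to Cox8, or is Sdha, Sdhb, Sdhc, Sdhd, Cyc1 or Cycs. This symbol rule, which uses no measured difference, gave 88 of the 11822 genes that both tables list. It put 44 genes in complex I, 4 in complex II, 9 in complex III, 13 in complex IV and 17 in complex V, with the carrier Cycs as the remaining 1. The rule follows symbols and not proteins: the Nduf genes include 7 assembly factors and Ndufa4, whose protein is now assigned to complex IV, and Atp5sl is also known as an assembly factor of complex I.

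Oxidative phosphorylation is carried out in the inner mitochondrial membrane. Complexes I and II pass electrons from NADH and succinate to ubiquinone, complex III passes them on to cytochrome c, and complex IV hands them to oxygen. Complexes I, III and IV pump protons, and complex V, the ATP synthase, uses the returning protons to make ATP. Nearly all subunits are encoded in the nucleus, and the others in the mitochondrial genome. Dendritic cells activated through Toll-like receptors are known to raise glycolysis, which makes the respiratory genes of interest in maDC.

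The 4 libraries were 2 from Mettl3KO mice and 2 from Mettl3WT littermates. Mettl3 is the catalytic subunit of the enzyme that places N6-methyladenosine on mRNA. Mettl3KO mice carried floxed Mettl3 alleles and CD11c-Cre, a transgene driven by the promoter of the CD11c gene, which removes exons 2 to 4 in cells that express it. Mettl3WT mice carried the floxed alleles and, by the study's naming, no Cre, so Cre and the loss of Mettl3 cannot be told apart as sources of a difference. All mice were 6 weeks old, and all cells were grown with GM-CSF (10 ng/ml) and IL-4 (1 ng/ml), taken with beads against CD11c, and given LPS (100 ng/ml) for 24 h. The study used 2 pairs of littermates, and the 2 libraries of a number were taken as a pair, here pair 1 and pair 2. Each table holds 1 pair, so n is 2 pairs in every comparison. Values are RPKM, mapped reads scaled by gene length and library size. Ratios are Mettl3KO over Mettl3WT on the log2(RPKM + 1) scale, which understates the change of low genes.

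The libraries held about 33850000 and 31240000 reads in Mettl3KO and 35560000 and 32620000 in Mettl3WT, as read from the steps of low RPKM values. A member had a median of 1265 and 2190.5 reads in the Mettl3KO libraries and 1362 and 1972.5 in the Mettl3WT libraries, so counting error was small for most members, and intervals on ratios below cover counting error alone. Mettl3 itself had 4.59 and 4.39 RPKM in Mettl3KO and 5.31 and 5.10 RPKM in Mettl3WT, a value per gene that cannot show the deleted exons. Markers of dendritic cells were present, and all 8 of the list were in both tables. They summed to 5883 and 4927 RPKM in Mettl3KO and 6588 and 9027 RPKM in Mettl3WT. In Mettl3KO 2 were higher and 6 lower in pair 1, and 1 was higher and 7 lower in pair 2. The higher marker in pair 2 was Itgax, the CD11c gene, with 51.0 RPKM in Mettl3KO and 17.2 RPKM in Mettl3WT. Granulocyte markers moved with the libraries, and in opposite directions in the pairs. They summed to 5525 and 150 RPKM in Mettl3KO and to 2385 and 3031 RPKM in Mettl3WT, with 9 of 10 listed for pair 1 and 3 of 10 for pair 2. Monocyte and macrophage markers (8 of 8) summed to 5226 and 16154 RPKM in Mettl3KO and to 4313 and 11277 RPKM in Mettl3WT. Most of each sum was Lyz2. In Mettl3KO 5 of these markers were higher and 3 lower in pair 1, and all 8 were higher in pair 2. The part of these cells in the results below was not tested, and in bulk RNA fewer cells of a type and less RNA per cell cannot be told apart. Sex-linked RNA could be compared in pair 1 alone and differed there. Xist had 37.8 RPKM in Mettl3KO and 0.0502 RPKM in Mettl3WT, and Ddx3y 0.0243 RPKM in Mettl3KO and 29.1 RPKM in Mettl3WT. These are the levels of a female Mettl3KO and a male Mettl3WT library. Sex and genotype therefore cannot be told apart as sources of a difference in pair 1. The table of pair 2, which holds only genes above 1 RPKM in both libraries, lists neither gene. Neither Xist nor Ddx3y was thus above 1 RPKM in both libraries of pair 2. At the levels of pair 1, 2 female libraries would have listed Xist and 2 male libraries Ddx3y. The libraries of pair 2 may thus also differ in sex, which was not tested further. Sex and genotype may then be inseparable in pair 2 as well. The 3 members on chromosome X, Ndufa1, Ndufb11 and Cox7b, had a median ratio of 0.05 in pair 1 and 0.22 in pair 2.

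Short windows of promoters were looked at for letters that factors of the respiratory genes are known to bind, since the members share regulators by textbook knowledge. RefSeq (GRCm38.p6) gave a promoter of 300 bases for 75 of the 88 members, reaching from before the start of the transcript to past it. The letters searched, on both strands, were GCATGCGC for NRF1, CCGGAAGT for GABP, AAGATGGC for YY1 and TCAAGGTCA for ERRa. The NRF1 letters and their reverse complement share 6 letters and often overlap at 1 site. Each window of 30 bases below is shown because its gene is described in the results, with the matched letters in capitals. The matches shown for Ndufa3, Ndufc1, Uqcrc1 and Sdhd begin 22, 22, 32 and 36 bases past the start, within the transcribed gene.
Cycs, NRF1 (chr6:50566611-50566640, minus strand): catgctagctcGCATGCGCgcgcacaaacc
Uqcrc1, NRF1 (chr9:108936668-108936697, plus strand): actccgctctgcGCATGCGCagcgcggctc
Ndufa3, YY1 (chr7:3617384-3617413, plus strand): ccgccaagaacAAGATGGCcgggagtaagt
Ndufc1, YY1 (chr3:51408915-51408944, minus strand): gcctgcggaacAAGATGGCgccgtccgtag
Cox8a, GABP (chr19:7217604-7217633, minus strand): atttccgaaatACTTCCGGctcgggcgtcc
Uqcrh, GABP (chr4:116075063-116075092, minus strand): gagtatgccgcACTTCCGGccaggtcgccg
Sdhd, ERRa (chr9:50603800-50603829, minus strand): tttccgggttgtagagTGACCTTGAgccct

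NRF1 letters stood in 13 of the 75 member promoters (17.3%), 6.43% of 7756 promoters of other tested protein-coding genes and 3.05% of all 27025 promoters of the table. YY1 letters stood in 11 (14.7%), against 5.92% of the other tested genes and 3.19% of all promoters. Most of the YY1 matches in members lay past the start of the transcript. GABP letters were held by 5 (6.67%), a smaller share than the 10.4% of the other tested genes, with 4.31% of all promoters. ERRa letters were held by 2, Sdhd and Atp5g3, or 2.67%, against 0.335% and 0.466%. A match of letters is a description and not a site. Split by the direction of the ratios described below, NRF1 letters were in 8 of 38 promoters of members that were higher in Mettl3KO in both pairs and in 3 of 14 of those lower in both, and YY1 letters in 5 of 38 and 2 of 14.

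The transcripts differed widely in level. Per gene length, complex IV members had the highest levels, with a median over genes of 205.8 RPKM as the mean of the 4 libraries. The medians of the other complexes were 97.5 RPKM in complex V, 60.1 in complex II, 60.03 in complex III and 34.4 in complex I. Single members ran from 1.31 RPKM (Ndufaf6, an assembly factor of complex I) to 365 RPKM (Cox8a, a small subunit of complex IV). Isoforms of other tissues were low. Cox6b2, the testis isoform of Cox6b1, had 1.96 and 1.66 RPKM in Mettl3KO and 1.91 and 2.78 RPKM in Mettl3WT, while Cox6b1 had 187 and 352 RPKM in Mettl3KO and 173 and 309 RPKM in Mettl3WT. Cox4i2, Cox6a2 and Cox7b2 matched the symbol rule in the first table only, at 0.174, 0.269 and 0.380 RPKM in Mettl3KO and 0.0383, 0.171 and 0 RPKM in Mettl3WT. The second table lists only genes above 1 RPKM, and these 3 genes were not analysed further.

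No member passed the test. limma called 5 of 11757 genes (0.0425% in either direction at an adjusted p under 0.05), and 0 of the 88 members in either direction (0.017% of all genes were called higher and 0.0255% lower). At an unadjusted p under 0.05 there were 654 genes (5.56%) and 3 members, Cox7a1, Ndufa3 and Ndufaf2. With protein-coding genes tested alone, Cox7a1 was the 1 member called, with 0.17% of those genes called higher and 0.249% lower. The ratios of members are therefore given as values and counts, none of them shown by the test to be a change.

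The members' ratios had different medians in the pairs. In pair 1 the members stood about evenly on both sides, with 45 of 88 higher in Mettl3KO (51.1%, against 46.7% of all genes tested) and a median ratio of 0.00, and in pair 2 66 were higher (75%, against 41.7%) with a median of 0.18. Over all genes tested, the median was -0.02 in pair 1 and -0.08 in pair 2. Both pairs put Mettl3KO higher for 41 members (46.6%, against 19.1% of all genes) and lower for 18 (20.5%, against 30.8%). A further 25 were lower in pair 1 and higher in pair 2, and 4 went the other way. Summed over the members, Mettl3KO libraries had 5645 and 10741 RPKM and Mettl3WT libraries 5545 and 8686 RPKM. Mettl3KO thus had 1.02 and 1.24 times as much, against 1.02 and 1.11 times as much summed over all genes tested. Levels were mostly higher in pair 2: 83 of 88 members had more RPKM in the second Mettl3KO library than in the first, and 81 of 88 in the second Mettl3WT library, with the caution that the tables were normalized separately. Ratios of 1.5-fold or more on the RPKM + 1 scale were found in 1 member in pair 1 (2.57% of all genes). There were 12 in pair 2 (6.46%), and all of these members were higher in Mettl3KO. On that scale, which understates the change of low genes, no member was lower by 1.5-fold in either pair (1.86% of all genes in pair 1 and 10.9% in pair 2).

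**Figure D1:**
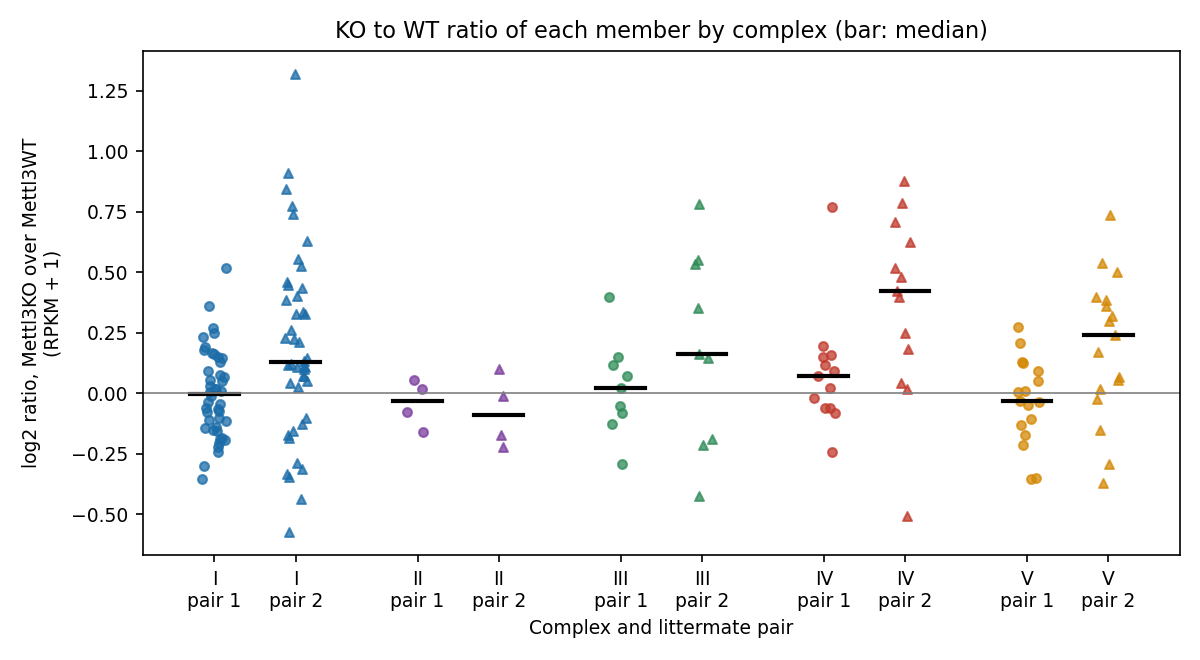
Log2 ratio of Mettl3KO over Mettl3WT (RPKM + 1) of each member, by complex (I to V) and pair. Each point is a gene and the bar is the median. In pair 1 the medians lie between -0.03 and 0.07, and in pair 2 between -0.09 (complex II) and 0.42 (complex IV).

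Complex I, NADH dehydrogenase, had 44 members, of which 21 were higher and 10 lower in Mettl3KO in both pairs, and its median ratio was -0.00 in pair 1 and 0.13 in pair 2. Without the 7 Ndufaf assembly factors and Ndufa4 the medians of the remaining 36 were 0.01 and 0.18. The highest was Ndufa3 (chromosome 7, 3617373 to 3620161 in mm10, plus strand), an accessory subunit whose YY1 letters are shown above. It had 91.6 and 268 RPKM in Mettl3KO and 76.9 and 107 RPKM in Mettl3WT. Mettl3KO was thus higher in 2 of 2 pairs, but the first Mettl3KO library was below the second Mettl3WT library, so the groups overlap. The ratio of RPKM was 1.19 in pair 1, where the 95% counting interval was 1.09 to 1.30, and 2.51 in pair 2, where it was 2.35 to 2.69. limma gave a log2 change of 0.79 with an SE of 0.29 and an adjusted p = 0.730.

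The lowest was Ndufv1 (chromosome 19, 4007499 to 4012755, minus strand), the core subunit that takes electrons from NADH. It had 21.5 and 23.7 RPKM in Mettl3KO and 25.3 and 32.4 RPKM in Mettl3WT, with both Mettl3KO libraries below both Mettl3WT libraries. The fit gave -0.33 (log2 change, SE 0.22, limma adjusted p = 0.994). Ndufc1, an accessory subunit with YY1 letters like those of Ndufa3, was on opposite sides in the pairs, with 20.6 and 67.9 RPKM in Mettl3KO and 25.6 and 39.3 RPKM in Mettl3WT. Of the assembly factors, which build the complex and are not part of it, 1 of 7 was higher and 2 were lower in both pairs. Ndufaf2 was the higher one, with 7.04 and 10.5 RPKM in Mettl3KO and 4.63 and 7.44 RPKM in Mettl3WT, from 162 and 222 reads in Mettl3KO and 112 and 164 reads in Mettl3WT. Ndufaf7 had the lowest ratio of any member in pair 1 (-0.36), with 3.39 and 4.83 RPKM in Mettl3KO and 4.62 and 5.26 RPKM in Mettl3WT.

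Complex II, succinate dehydrogenase, is also an enzyme of the tricarboxylic acid cycle and has no subunit from the mitochondrial genome. The median ratio of its 4 members was -0.03 in pair 1 and -0.09 in pair 2. Sdha (chromosome 13, 74322255 to 74350240, minus strand), the flavoprotein that oxidizes succinate, had 54.2 and 48.7 RPKM in Mettl3KO and 60.7 and 54.9 RPKM in Mettl3WT. The groups did not overlap, yet the difference was small (log2 change -0.17, SE 0.22, limma adjusted p = 0.994). Sdhd (chromosome 9, 50596340 to 50603849, minus strand), a membrane anchor, had the highest level of the complex, 126 and 178 RPKM in Mettl3KO and 121 and 166 RPKM in Mettl3WT (log2 change 0.08, SE 0.23, limma adjusted p = 0.996).

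Complex III, cytochrome bc1, had 5 of 9 members higher and 3 lower in Mettl3KO in both pairs, with median ratios of 0.02 and 0.16. Uqcrq (chromosome 11, 53427922 to 53430831, minus strand), a small accessory subunit, was the highest, with 36.3 and 87.6 RPKM in Mettl3KO and 27.3 and 59.5 RPKM in Mettl3WT. The counting intervals of its ratio lay above 1 in both pairs (1.16 to 1.52 and 1.35 to 1.62), and the fit over both pairs gave 0.47 as log2 change (SE 0.22, limma adjusted p = 0.906). Uqcrc2 (chromosome 7, 120635189 to 120659523, plus strand), a large subunit on the matrix side, had 38.7 and 33.9 RPKM in Mettl3KO and 47.7 and 38.8 RPKM in Mettl3WT. Both Mettl3KO values lay below both Mettl3WT values, by a narrow margin (log2 change -0.24, SE 0.22, limma adjusted p = 0.994).

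Uqcrh (chromosome 4, 116066965 to 116075070, minus strand), the hinge protein that meets cytochrome c, had the most RNA of the complex, 223 and 445 RPKM in Mettl3KO and 201 and 348 RPKM in Mettl3WT (log2 change 0.25, SE 0.24, limma adjusted p = 0.994). Cyc1 (chromosome 15, 76343523 to 76345934, plus strand) encodes cytochrome c1, the subunit that hands electrons to the carrier. It had 47.8 and 52.8 RPKM in Mettl3KO and 50.7 and 61.4 RPKM in Mettl3WT, so that Mettl3KO was lower in 2 of 2 pairs while the groups overlapped (log2 change -0.15, SE 0.22, limma adjusted p = 0.994). Uqcrc1, another large matrix subunit and the one with NRF1 letters shown above, had 43.8 and 46.1 RPKM in Mettl3KO and 45.4 and 62.2 RPKM in Mettl3WT.

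The mobile carrier was on opposite sides in the pairs. Cycs (chromosome 6, 50562563 to 50566474, minus strand), the somatic cytochrome c, carries electrons to complex IV and has a further role in apoptosis. It had 24.2 and 46.04 RPKM in Mettl3KO and 28.2 and 30.6 RPKM in Mettl3WT, which is 0.857 times as much in pair 1 and 1.504 times as much in pair 2. The 95% counting intervals, 0.813 to 0.903 and 1.44 to 1.58, lie on opposite sides of 1. Over both pairs the log2 change came to 0.18 (SE 0.25, limma adjusted p = 0.994).

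Complex IV, cytochrome c oxidase, had the highest medians, 0.07 in pair 1 and 0.42 in pair 2. In pair 2 12 of 13 members were higher in Mettl3KO, and 7 were higher and 0 lower in both pairs. With Ndufa4 counted here, 7 of 14 were higher and 1 was lower in both pairs, with medians of 0.05 and 0.41. Cox8a (chromosome 19, 7215158 to 7217616, minus strand), the smallest subunit, had 283 and 506 RPKM in Mettl3KO and 247 and 426 RPKM in Mettl3WT (log2 change 0.22, SE 0.23, limma adjusted p = 0.994). Cox4i1 (chromosome 8, 120668225 to 120674209, plus strand), the common form of the regulatory subunit, was the lowest among members of the complex that went the same way in both pairs. It had 257 and 454 RPKM in Mettl3KO and 232 and 442 RPKM in Mettl3WT (log2 change 0.10, SE 0.23, limma adjusted p = 0.994). Cox7a2l, which joins complexes III and IV into supercomplexes, had 197 and 387 RPKM in Mettl3KO and 176 and 251 RPKM in Mettl3WT.

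Cox7a1 (chromosome 7, 30184171 to 30186030, plus strand), the isoform of heart and skeletal muscle, had the highest fitted change of any member. It also had the 1 ratio of at least 1.5-fold in both pairs on the RPKM + 1 scale (all genes: 0.731% higher, 0.476% lower). It had 0.967 and 3.76 RPKM in Mettl3KO and 0.154 and 1.59 RPKM in Mettl3WT. These are low values, from about 16 and 57 reads in Mettl3KO and 3 and 25 reads in Mettl3WT. The ratio in pair 1 was 6.30 with a counting interval of 1.60 to 30.01, and in pair 2 it was 2.36 (1.46 to 3.98). The first Mettl3KO library was below the second Mettl3WT library, and the log2 change of 0.82 (SE 0.18) had a limma adjusted p = 0.229 over all genes and 0.0475 with protein-coding genes alone. Fits with 1 library left out had no pair block and set separately normalized tables against each other. In these the log2 change was 1.46 without the first Mettl3KO library and 0.19 without the second. It was 0.24 without the first Mettl3WT library and 1.41 without the second. Cox7a2, the isoform found in most tissues, had 51.7 and 161 RPKM in Mettl3KO and 53.9 and 93.04 RPKM in Mettl3WT.

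Complex V, the ATP synthase, has parts that were summarized apart. The F1 part, which makes ATP, and the Fo part with the stalks, which turns on the proton flow and holds F1 in place, had median ratios of -0.17 (5 members) and 0.01 (10 members) in pair 1. In pair 2 they were -0.02 and 0.31, and all 10 Fo and stalk members were higher in Mettl3KO. Atp5b (chromosome 10, 128083307 to 128090388, plus strand), the catalytic beta subunit, had 193 and 196 RPKM in Mettl3KO and 247 and 240 RPKM in Mettl3WT. The groups did not overlap, and its levels were close in both pairs. The test was not passed, with a log2 change of -0.32 (limma SE 0.23, adjusted p = 0.994). Atp5a1, the alpha subunit, had 138 and 135 RPKM in Mettl3KO and 156 and 150 RPKM in Mettl3WT.

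Atp5e (chromosome 2, 174461075 to 174464101, minus strand), the epsilon subunit of the central stalk, is counted with F1 and had the highest fitted change of the complex. It had 164 and 525 RPKM in Mettl3KO and 154 and 315 RPKM in Mettl3WT (log2 change 0.41, SE 0.25, limma adjusted p = 0.994), so that nearly all of the difference stood in pair 2. Atp5s, a coupling factor at low level, had ratios of -0.35 in pair 1 and 0.39 in pair 2. It had 1.33 and 2.32 RPKM in Mettl3KO and 1.97 and 1.53 RPKM in Mettl3WT.

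**Figure D2:**
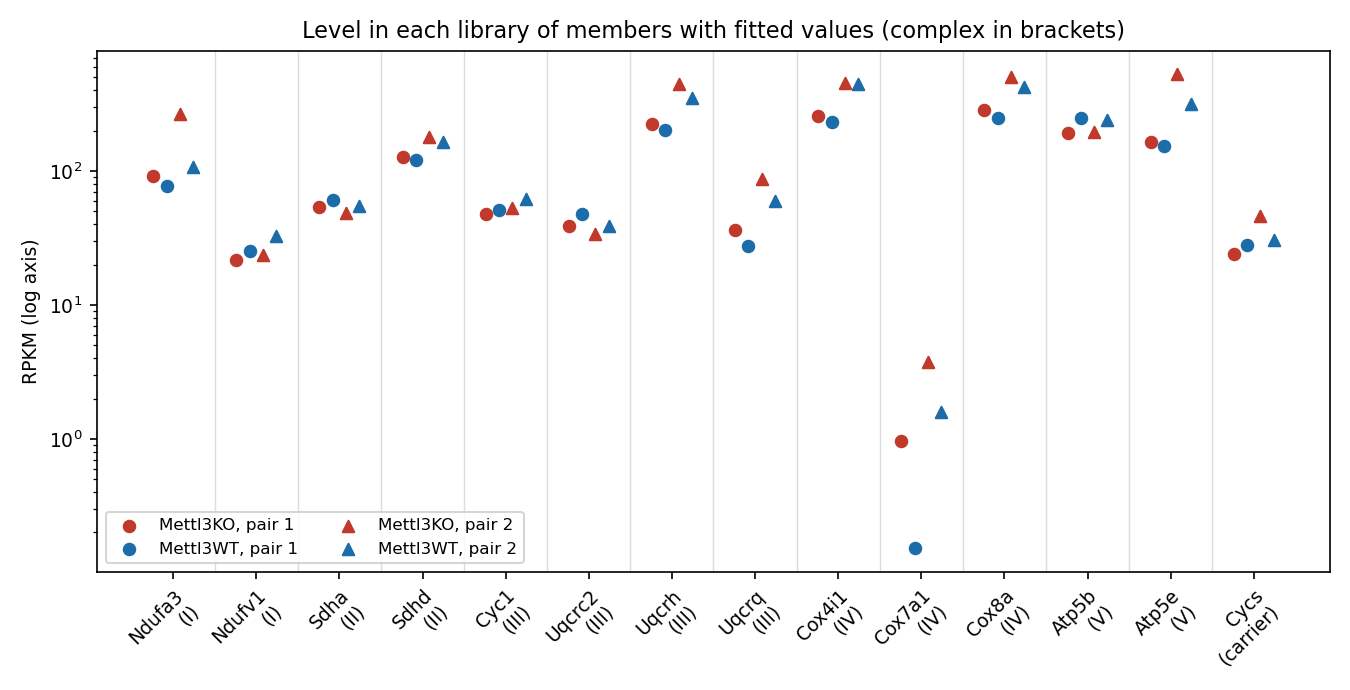
RPKM (log axis) of the 14 members with fitted values, in the 2 Mettl3KO (red) and 2 Mettl3WT (blue) libraries, circles for pair 1 and triangles for pair 2. Ndufv1, Sdha, Uqcrc2 and Atp5b have both Mettl3KO libraries below both Mettl3WT libraries, and for small subunits such as Cox8a and Atp5e the pairs differ more than the genotypes.

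Members were also counted by role across complexes. Of the 11 core subunits, the conserved subunits of complexes I to III at the centre of electron transfer, 3 were higher and 6 lower in Mettl3KO in both pairs, with medians of -0.08 and -0.17. Of the 46 accessory subunits 27 were higher and 6 lower in both pairs, their medians were 0.02 and 0.33, and 40 were higher in pair 2. Roles also differed in length, with a median coding sequence of 846 bases in core and 378 in accessory subunits. The medians were 894 bases in F1 and 415.5 in Fo and stalk subunits. Role and coding length were not separated here. In all, 6 members had both Mettl3KO libraries below both Mettl3WT libraries (6.82%, against 10.2% of all genes), among them Ndufv1, Sdha, Uqcrc2, Atp5a1 and Atp5b, and 0 had both above (4.7% of all genes). The 6 share a long coding sequence, of 1359 to 1992 bases.

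**Figure D3:**
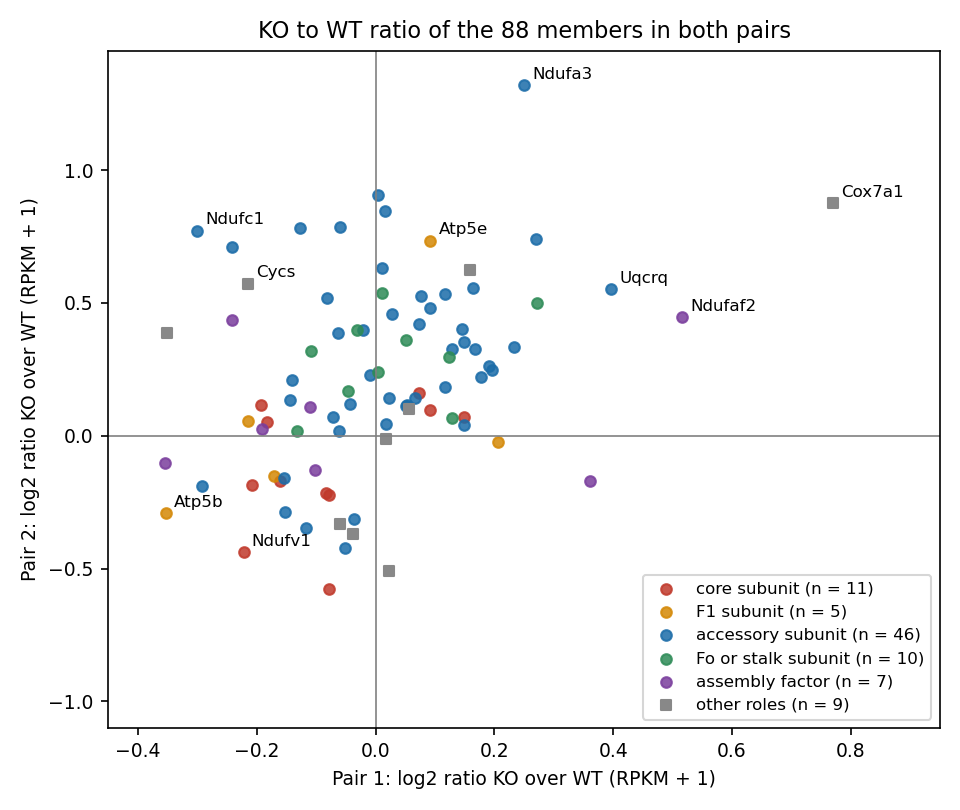
Log2 ratio of Mettl3KO over Mettl3WT (RPKM + 1) in pair 1 (horizontal axis) and pair 2 (vertical axis) for each of the 88 members, coloured by role. The 10 Fo and stalk subunits all lie above 0 in pair 2, and 6 of the 11 core subunits lie below 0 in both pairs.

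The length of the coding sequence, which the symbol rule did not use, went with the ratios. Members are short genes, with a median coding length of 442.5 bases and 61 of 88 (69.3%) under 600 bases, against 1338 bases and 13.4% in the other tested protein-coding genes. The 18 members under 300 bases had a median of 0.10 in pair 1 and 0.51 in pair 2, while the 10 members of 1200 bases or more had -0.18 in both. Spearman's rho of ratio and coding length over the 88 members was -0.44 in pair 1 and -0.64 in pair 2, a description across genes that share their libraries. The other protein-coding genes went the same way, with rho of -0.13 and -0.21 over 9826 genes, medians of 0.10 and 0.31 under 300 bases, and -0.05 and -0.14 from 1200 bases. Length also went with the difference between the Mettl3WT libraries of the pairs, with rho of -0.59 in members and -0.40 in other genes.

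**Figure D4:**
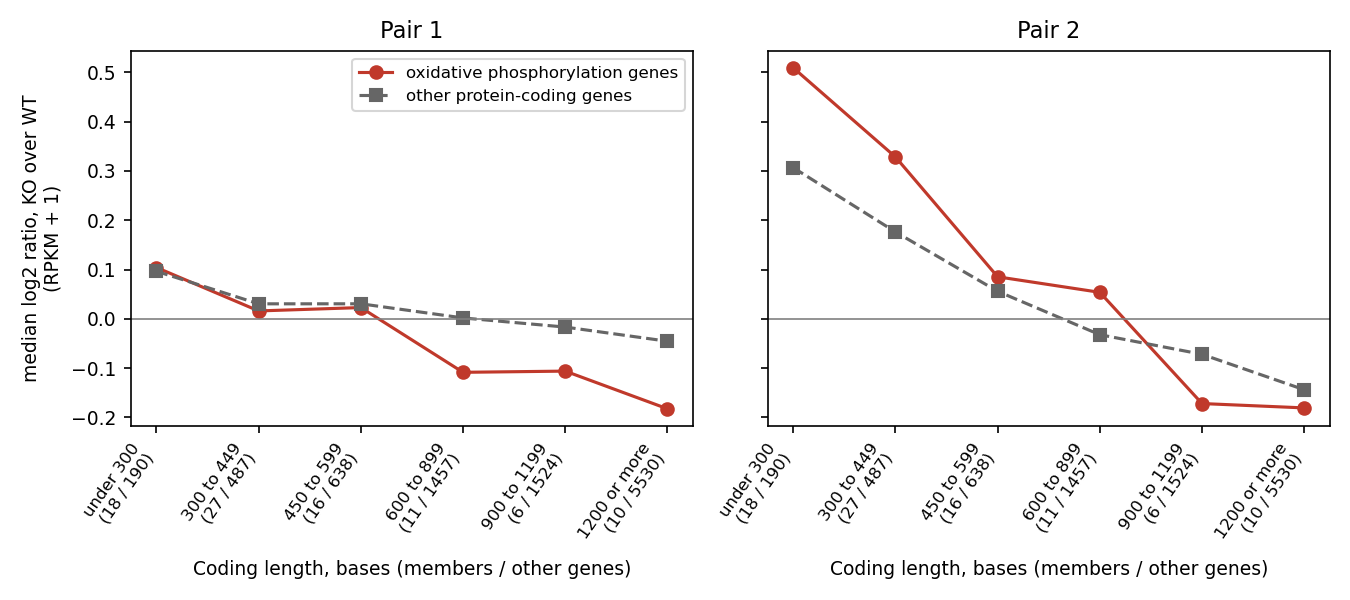
Median log2 ratio of Mettl3KO over Mettl3WT (RPKM + 1) by coding length in pair 1 (left) and pair 2 (right), for the members (red circles) and the other protein-coding genes (grey squares), with the number of genes in brackets. Both groups of genes have their lowest median in the longest genes in both pairs, and members under 300 bases reach 0.51 in pair 2, against 0.31 for other genes.

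After the curve of ratio on coding length over all genes was subtracted, the median of the members was -0.03 in pair 1 and 0.07 in pair 2, with 25 higher and 25 lower in Mettl3KO in both pairs. Complex IV had the highest median in pair 2, 0.17, and the others were 0.09 in complex I, -0.06 in complex II, 0.06 in complex III and 0.08 in complex V. This adjustment was chosen after the data were seen.

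Genes with related functions were set beside the members from fixed lists, and 0 of them passed the test. Of 17 enzymes of the tricarboxylic acid cycle and pyruvate dehydrogenase, which supply the electrons, 1 was higher and 8 were lower in Mettl3KO in both pairs (medians -0.18 and -0.09). Glycolysis genes (14 of 14 tested) had medians of -0.11 and -0.12, and carriers and porins of the mitochondrial membranes (7 of 7) -0.02 and -0.02. Assembly factors with other names (35 of 36) had 0.06 and 0.15, with 11 higher and 5 lower in both pairs. Regulators of mitochondrial gene expression (14 of 17), among them Nrf1, Gabpa, Yy1 and Esrra, whose letters were searched above, had -0.10 and -0.06, with 0 higher and 6 lower in both pairs. Other gene families with short coding sequences were on the same side as the members in pair 2: the medians were 0.05 and 0.46 in 84 cytosolic ribosomal protein genes and 0.07 and 0.24 in 77 mitochondrial ribosomal protein genes. Of the mitochondrial genome, the ribosomal RNA mt-Rnr1 had 1160 and 4949 RPKM in Mettl3KO and 1219 and 1853 RPKM in Mettl3WT. The other ribosomal RNA, mt-Rnr2, had 1370 and 3713 RPKM in Mettl3KO and 1675 and 1857 RPKM in Mettl3WT. The 13 subunits encoded there were not analysed here.

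Some values are uncertain because reads can match elsewhere. For 20 members at least 1 other annotated gene, mostly a processed pseudogene, matched at 95% identity or more over at least 90% of the coding sequence, 40 in all, of which 11 were listed in the first table. Atp5l had 8 such copies and Cycs 4, and Gm11273, a copy of Cox5b, was listed at 9.45 RPKM in Mettl3KO and 16.5 RPKM in Mettl3WT of pair 1. The 20 members had medians of -0.04 and 0.23 and the 68 others 0.01 and 0.16. Some members overlap a gene on the opposite strand (Atp5j and Gabpa, Uqcrc2 and Pdzd9, Atp5a1 and Haus1), and whether strand was used in counting is not given in the sources used here.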

How the data were processed

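The authors deposited a table per replicate number with RPKM per gene, made with TopHat2 2.0.14, Cuffnorm and mm10 according to the submitters' processing notes. For annotation, strandedness and multiple matches, the sources used here give nothing. The tables hold 23690 and 11835 genes. Their fold changes and p-values of 1 library against 1 library were not used. The 11757 genes averaging 1 RPKM or more were fitted as log2(RPKM + 1) with limma 3.58.1 (trend, pair as block, Benjamini-Hochberg, threshold 0.05) in R 4.3.3, tested on simulated data first. The study used littermate pairs, and same-numbered libraries were taken as a pair. Deviations of same-numbered libraries correlated at r = 0.697 over all genes. Separate processing of the tables could also give this, so it does not show which libraries are littermates. Library sizes were read from whole-read steps of low values (97.7% to 100% within 0.1 reads). Coding lengths are from GENCODE M21, and copies were sought with blastn 2.17.0. Fitted values are given for Cycs, Cyc1 and, per complex, the highest and lowest member going the same way in both pairs and the most abundant; members, isoforms and examples of roles otherwise have RPKM only. Ndufc1, Uqcrc1, Atp5a1 and Cox7a2 were named after their values were seen. A withheld item is not reported here. Members and lists were chosen with earlier results of these data known. Alternatives changed the block, pseudocount, filter, trend, scaling, gene type and libraries.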

Additional observations from a re-analysis of the deposited data

How the results depend on the processing

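Under every alternative run, 0 members were called, with 1 exception: with protein-coding genes alone 1 member was called higher (Cox7a1, log2 change 0.82, limma adjusted p = 0.0475, against 0.0586 to 1.00 under its other alternatives). The numbers of all genes called were 5 with the pair as a block, 0 with no replicate block, where 0 members had an unadjusted p under 0.05, 1 with a pseudocount of 0.1 RPKM, 7 at a mean of at least 5 RPKM, 4 without the trend, 1 with centred pairs, 1 with quantile normalization, 42 with protein-coding genes alone, and 1 after adjustment for coding length. Centring moved the median of complex II to -0.027. With all 4 libraries, the median of the members ran from 0.03 after adjustment for coding length to 0.15, and no complex changed direction.

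Leaving out a library broke a pair, so these fits had no block and set libraries of separately normalized tables against each other, and a lone library was taken to vary like the others. Without each library in turn, the number of all genes called ran from 1 (without Mettl3WT replicate 2) to 118 (without Mettl3KO replicate 1), with 0 members called. The median of the members ran from -0.30 (without Mettl3KO replicate 2) to 0.52 (without Mettl3KO replicate 1), and those of the complexes from -0.31 to 0.51 in complex I, -0.20 to 0.20 in complex II, -0.25 to 0.75 in complex III, -0.30 to 0.79 in complex IV and -0.30 to 0.51 in complex V. Of the named members, 7 changed direction in 1 or 2 of these 4 fits, with ranges of -0.42 to 1.249 (Atp5e), -0.37 to 0.56 (Cox4i1), -0.20 to 0.64 (Cox8a), -0.27 to 0.63 (Cycs), -0.17 to 0.32 (Sdhd), -0.25 to 0.75 (Uqcrh) and -0.15 to 1.10 (Uqcrq). All 13 reversals came without Mettl3KO replicate 2 or Mettl3WT replicate 1, and the cause was not tested beyond the difference between pairs given above. With 2 pairs, p-values rest on 1 residual degree of freedom per gene and the spread borrowed from other genes, and depth limits only the lowest members, such as Cox7a1 with 3 reads in a library.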
